A study of Homo sapiens with 12 samples.

Results

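TC-71-R and A4573-R are derivatives of the Ewing sarcoma cell lines TC-71 and A4573 that resist YK-4-279, and they were compared directly, while under the compound. The comparison takes 6 of the 12 libraries of the study, 3 of TC-71-R and 3 of A4573-R, grouped by their labels. Per the labels, TC-71-R was treated with YK-4-279 at 400 uM and A4573-R at 650 uM, while TC-71 parental and A4573 parental, with 3 libraries each, received the solvent DMSO. Both doses are far above those usual for YK-4-279, and the unit is printed as the labels have it without being certain. Cell line and dose cannot be told apart, because each resistant line had a dose of its own. All cells were grown in RPMI medium with 10% serum. The labels do not say whether a resistant line is 1 clone or a mixed culture, nor whether its 3 libraries came from separate cultures, so p-values measure only the spread between these libraries, which may be technical. Of 56609 gene symbols, 13801 reached 1 CPM (reads scaled by the authors to a library of about 1000000) in at least 3 of the 6 libraries and were tested. A difference is TC-71-R minus A4573-R on the log2(CPM + 1) scale throughout, and it understates the change of a gene with few CPM. Genes with a Benjamini-Hochberg adjusted p from limma under 0.05 are called higher or lower in TC-71-R.

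Ewing sarcoma, which arises in bone or soft tissue, carries a fusion of the EWSR1 gene with an ETS family gene, most often FLI1, and the fusion protein EWS-FLI1 switches on some genes through GGAA repeats and silences others that a mesenchymal cell would express. The product of DHX9, RNA helicase A, binds EWS-FLI1, and the small molecule YK-4-279 was designed against that interaction. Ewing sarcoma cells keep features of both neural crest and mesenchymal stem cells, and express neuronal, matrix and developmental genes. Line-specific silencing or deletion of single genes, and loss of tumour suppressors such as CDKN2A, are also common in these lines.

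The TC-71-R libraries held 44.0 to 62.1 M reads (M, 1000000) on named genes and the A4573-R libraries 45.1 to 51.0 M. At this depth the spread between libraries was small, with a median SD of 0.059 in TC-71-R and 0.068 in A4573-R on the log2 scale. Pearson's r between libraries was at least 0.997 within each resistant line and 0.806 to 0.817 between the lines, over the 13801 genes, which are not independent replicates. Of 12 Ewing sarcoma markers, 10 reached 1 CPM in every TC-71-R library and 11 in every A4573-R library. The exceptions were CCK, near 0 in TC-71-R, and CD99, at 0 or 1 read in all 6 libraries. CD99 lies in the region shared by chromosomes X and Y, where reads can match both copies, and this listing does not show that the cells lack it. The defining immune, endothelial and red blood cell markers were each at 1.02 CPM or less in every library, and 7 epithelial markers summed to 0.536 to 0.622 CPM in TC-71-R and 1.60 to 1.79 CPM in A4573-R. Genes encoded on mitochondrial DNA took 5.08% to 7.78% of reads in TC-71-R and 2.41% to 2.77% in A4573-R. Their part in the differences of other genes was not tested.

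Nearly every expressed gene was at a different level in the resistant lines. Of the 13801 genes, 5881 (42.6%) were higher and 6160 (44.6%) lower in TC-71-R, 87.2% in all. At 2-fold or more, 2009 genes (14.6%) were higher and 2243 (16.3%) lower. The median difference of all genes was -0.02 and the median absolute difference 0.62. The authors' scaling of the libraries can itself centre the differences near 0, and the balance of both directions cannot be told apart from it. In 12110 genes (87.7%) the TC-71-R libraries did not overlap the A4573-R libraries, 5902 of them higher (42.8%) and 6208 lower (45%). At the far end, 44 genes were higher and 34 lower by at least 5 on the log2 scale.

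The fusion's partner genes were at the same level in both resistant lines within the spread between libraries. FLI1 (chromosome 11, 128686535 to 128813267, GRCh38 with GENCODE 29, as for all positions below) had 21.03, 19.3 and 20.6 CPM in TC-71-R, against 21.9, 22.5 and 20.7 CPM in A4573-R, overlapping ranges (log2 difference -0.091, SE 0.055, adjusted p = 0.14). EWSR1 (chromosome 22, 29268009 to 29300525) had 202, 208 and 209 CPM in TC-71-R, against 201, 201 and 212 CPM in A4573-R, and these also overlapped (log2 difference 0.011, SE 0.043, adjusted p = 0.82). Reads of the fusion transcript cannot be told from those of the normal alleles in a table per gene. DHX9 (chromosome 1, 182839369 to 182887751), whose product YK-4-279 is meant to keep from the fusion, had 303, 266 and 304 CPM in TC-71-R, against 445, 403 and 467 CPM in A4573-R, with no overlap (log2 difference -0.59, SE 0.069, adjusted p = 1.2e-05). The gap between the parental lines was larger, 208 ± 2.60 CPM in the TC-71 parental libraries and 564 ± 3.07 CPM in the A4573 parental ones (SD, n = 3 each; interaction 0.85, SE 0.077, adjusted p = 7.2e-08). TAF15, a relative of EWSR1, was lower in TC-71-R (log2 difference -0.41, SE 0.058, adjusted p = 5.4e-05). The list of 6 fusion partner genes and relatives had a median difference of -0.25 in the resistant lines and -0.60 in the parents. The interaction was called in all 6 and positive in 5, beside 78% called and 38.5% positive among all genes. In all 6 the difference between the resistant lines thus departed from that between the parents. The likeness of FLI1 and EWSR1 is stated for the resistant lines only. ERG, the ETS gene that replaces FLI1 in some tumours, was at 1 to 2 reads in each TC-71-R library and averaged 1.26 ± 0.104 CPM in A4573-R.

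The 12 genes with the highest difference were led by GDF10, NEFH and SLC34A2. GDF10 (chromosome 10, 47300386 to 47313547), a ligand of the TGF-beta superfamily, had 339, 319 and 344 CPM in TC-71-R, against 0, 0.0250 and 0.168 CPM in A4573-R (log2 difference 8.30, SE 0.067, adjusted p = 3.9e-14). NEFH (chromosome 22, 29480230 to 29491390), the neurofilament heavy chain of large axons, had 329, 316 and 339.6 CPM in TC-71-R, against 0.0434, 0.0250 and 0.103 CPM in A4573-R (log2 difference 8.28, SE 0.054, adjusted p = 1.8e-14). SLC34A2, a sodium-phosphate cotransporter, had 337, 324 and 329 CPM in TC-71-R, against 0.231, 0.212 and 0.336 CPM in A4573-R (log2 difference 8.04, SE 0.054, adjusted p = 1.8e-14). In these 3 genes the lowest TC-71-R library was at 316 CPM while no A4573-R library reached 1 CPM. The other 9 of the 12 highest differences lay between 6.25 and 7.03. They were DGKK, a diacylglycerol kinase; PADI2, which converts arginine to citrulline; HENMT1, which methylates the small RNAs of the germline; CTCFL, the testis relative of the insulator protein CTCF; the cancer-testis antigen PAGE1; ITGB2, the beta-2 integrin of leukocytes; the kainate receptor subunit GRIK3; the exchange factor PLEKHG4; and EGR2, a zinc finger transcription factor of Schwann cells. EGR2 was at 250.1, 268 and 254 CPM in TC-71-R and was not silent in A4573-R, at 2.43, 2.26 and 2.49 CPM. ITGB2 was likewise at 229, 221 and 233 CPM in TC-71-R and 1.43, 1.86 and 1.65 CPM in A4573-R, while the leukocyte marker PTPRC was at 0.887 to 1.02 CPM in TC-71-R and 0.116 to 0.412 CPM in A4573-R.

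The 12 genes with the lowest difference were led by CES1, KDM5C and CCK. CES1 (chromosome 16, 55802851 to 55833337), a carboxylesterase that cleaves ester drugs, had 0.178, 0.170 and 0.227 CPM in TC-71-R, against 253, 210.4 and 236 CPM in A4573-R (log2 difference -7.61, SE 0.069, adjusted p = 7.7e-14). KDM5C (chromosome X, 53191321 to 53225422), a demethylase of lysine 4 on histone H3, had 0.474, 0.498 and 0.443 CPM in TC-71-R, against 264, 266 and 267 CPM in A4573-R (log2 difference -7.50, SE 0.046, adjusted p = 1.8e-14). CCK, the cholecystokinin precursor and an activated target of EWS-FLI1, had 0.222, 0.485 and 0.217 CPM in TC-71-R, against 205, 211 and 206 CPM in A4573-R (log2 difference -7.32, SE 0.077, adjusted p = 1.5e-13). Each of these 3 genes was under 1 CPM in all TC-71-R libraries and at 205 CPM or more in all A4573-R libraries. The adjoining genes COL4A2 and COL4A1 on chromosome 13, which share a promoter and encode basement membrane collagen, were low together. They averaged 0.181 ± 0.232 and 0.107 ± 0.106 CPM in TC-71-R, against 157 ± 2.06 and 93.2 ± 2.32 CPM in A4573-R (SD, n = 3 each). COL1A2, of fibrillar collagen I, differed by -7.31, and its TC-71-R libraries spread from 0.193 to 0.944 CPM. The rest of the 12 lowest were the transcription factors TFAP2B and OTX2, cyclin D2 (CCND2), the actin cross-linker FLNC, the retinoic acid binding protein CRABP1 and the synaptic vesicle protein SV2A, with differences of -6.67 to -6.00. Antisense genes overlap 33.2% of the exon bases of CCK and 47.2% of those of CRABP1, and with no strand setting stated their reads cannot be told apart. The same limit holds for other genes named below whose exons overlap another gene by 10.1% to 31.1% of their bases, namely ALDOC, B4GALNT1, CCND2, GAPDH, GINS4, HOXA11, HOXB4, KRT18, L1CAM, NKX2-2, RPL7A, RRM2, TAPBPL, THY1, TUBA1A, TUBA4A and TUBB.

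**Figure D1:**
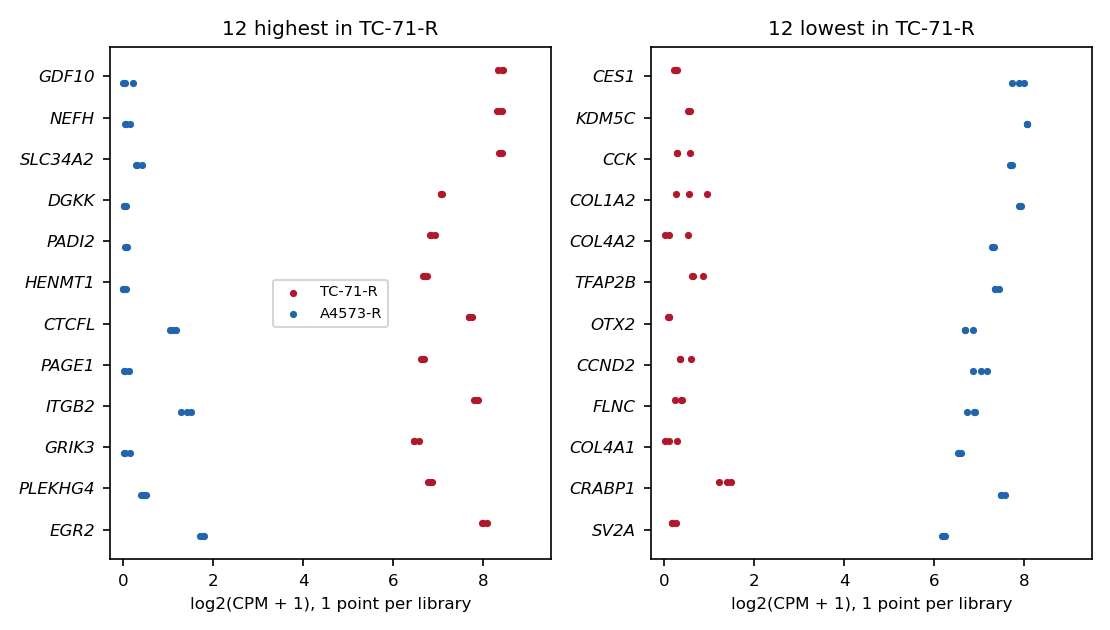
Level of the 12 genes with the highest and the 12 with the lowest difference, on the log2(CPM + 1) scale. Each point is 1 library, red for TC-71-R and blue for A4573-R. The 2 lines lie far apart in every gene, and the 3 points of a line fall close together.

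Some genes were read in 1 resistant line and close to absent from the other. At least 1 CPM in all 3 libraries of TC-71-R, with at most 3 reads in each A4573-R library, was found for 126 genes (0.913% of those tested), 78 of them protein coding. The reverse held for 232 genes (1.68%), 191 of them protein coding. Most were modest in level, with a median of 3.70 CPM among the 126 and 2.64 CPM among the 232. Among its genes named here, the TC-71-R set was led by DGKK, HENMT1 and RNF212, the last a factor of meiotic crossing over. It held the testis genes MAGEA1, SAGE1 and PRSS21 as well. MAGEA1 had 48.5, 42.2 and 51.4 CPM in TC-71-R and 0, 0 and 2 reads in A4573-R. PRSS21, a testis serine protease, averaged 38.8 ± 1.86 CPM in TC-71-R (SD, n = 3) with 0 reads in every A4573-R library, so it was at least 973-fold higher in TC-71-R against a floor of 3 reads per library. The A4573-R set was led by HAPLN1, which links hyaluronan to proteoglycans, DPYSL4 of the growth cone, CYYR1, and the secreted WNT inhibitor SFRP2. CYYR1 had 0 reads in all TC-71-R libraries and 59.2, 58.6 and 57.2 CPM in A4573-R, at least 1526-fold higher in A4573-R against the same floor. TBX5, a heart and forelimb transcription factor, averaged 0.0131 ± 0.0227 CPM in TC-71-R and 23.1 ± 2.08 CPM in A4573-R (SD, n = 3 each). By the same limits, the parental lines had the same pattern for 81 of the 126 genes (64.3%) and for 113 of the 232 (48.7%). The other parent rose above 3 reads in at least 1 library for 18 of the 126 and 79 of the 232. The line's own parent missed 1 CPM in at least 1 library for 30 and 64. A miss need not be a new difference, since TBX5 missed at 29.2 CPM in A4573 parental and 0.0348 CPM in TC-71 parental.

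The 4 leading genes of these sets with a RefSeq promoter window show how the sequence before the start differs between genes that are on in 1 line alone. Each sequence is the 250 bases before the RefSeq start on GRCh38.p14, read 5′ to 3′ on the gene's strand, with CG dinucleotides, the sites of DNA methylation, in capitals. The window of DGKK is chrX:50470826-50471075 on the minus strand and that of HENMT1 is chr1:108661475-108661724 on the minus strand. The window of HAPLN1 is chr5:83720856-83721105 on the minus strand and that of DPYSL4 is chr10:132186698-132186947 on the plus strand.
DGKK: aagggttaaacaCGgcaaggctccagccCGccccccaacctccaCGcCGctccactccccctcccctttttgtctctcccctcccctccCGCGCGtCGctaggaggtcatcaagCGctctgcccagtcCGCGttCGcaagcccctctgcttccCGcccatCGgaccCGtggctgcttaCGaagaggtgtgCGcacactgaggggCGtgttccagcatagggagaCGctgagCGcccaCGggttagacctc
HENMT1: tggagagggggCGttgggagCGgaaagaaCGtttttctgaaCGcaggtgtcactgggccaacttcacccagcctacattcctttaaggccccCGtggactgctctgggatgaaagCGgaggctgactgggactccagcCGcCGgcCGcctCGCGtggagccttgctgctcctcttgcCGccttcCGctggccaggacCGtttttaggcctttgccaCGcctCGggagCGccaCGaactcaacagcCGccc
HAPLN1: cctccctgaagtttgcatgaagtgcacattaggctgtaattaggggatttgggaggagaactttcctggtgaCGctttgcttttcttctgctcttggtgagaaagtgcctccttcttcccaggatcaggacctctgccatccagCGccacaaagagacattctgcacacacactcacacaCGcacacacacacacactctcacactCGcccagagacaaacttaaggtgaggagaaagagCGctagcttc
DPYSL4: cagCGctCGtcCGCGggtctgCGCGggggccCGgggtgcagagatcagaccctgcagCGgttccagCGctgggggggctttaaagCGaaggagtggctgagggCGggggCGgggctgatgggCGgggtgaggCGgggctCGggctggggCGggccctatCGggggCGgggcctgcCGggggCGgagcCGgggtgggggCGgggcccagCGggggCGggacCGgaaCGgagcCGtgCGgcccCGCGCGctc
These windows hold 21, 19, 5 and 31 CG dinucleotides in the order printed. Of the 78 protein-coding genes read in TC-71-R alone, 67 (85.9%) had a window, with a median of 13 CG. The median was 21 CG over the 10154 tested protein-coding genes with a window (82.0% of 12384) and 10 over all 27305 windows. The ETS motif CCGGAAGT, on either strand, was in 2 of the 67 windows (2.99%), 7.24% of those of tested genes and 3.64% of all windows. The pair of GGAA repeats GGAAGGAA, on either strand, was in 4 of the 67 windows (5.97%), 3.03% of those of tested genes and 2.99% of all windows. These counts are small, and no difference between the sets was tested. A motif match is a description of the letters and not a binding site. For the genes read in A4573-R alone, only 79.1% had a window, under the 80% needed, so that comparison is void.

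The resistant lines differed much as their parents did. The parental lines gave 12387 called genes (89.8%) among the same 13801, 6235 higher (45.2%) and 6152 lower (44.6%) in TC-71 parental. At 2-fold or more they gave 4113 (29.8%), 15.2% higher and 14.6% lower. The parental difference itself shares no library with this comparison. Its spread was estimated over all 12 libraries and that of the resistant difference over 6, so the numbers of calls are not like for like. The median absolute difference was 0.62 between the resistant lines and 0.61 between the parental lines. Across the 13801 genes, which are not independent, Pearson's r between both sets of differences was 0.789. Of the 4252 genes 2-fold or more apart in the resistant lines, 2593 (61.0%) were 2-fold or more apart in the parents in the same direction and 1251 (29.4%) were called in that direction at under 2-fold. In another 163 (3.83%) the parents were not called, and in 245 (5.76%) the parents were called in the opposite direction, 66 of them at 2-fold or more. An interaction test, the resistant difference minus the parental difference over all 12 libraries, called 10770 genes (78%), 5312 positive (38.5%) and 5458 negative (39.5%). At 2-fold or more it called 2205 (16%), 930 positive (6.74%) and 1275 negative (9.24%). The resistant libraries were under the compound and the parental ones in DMSO, so resistance and exposure cannot be told apart in the interaction. The same holds wherever the resistant and the parental state are compared below.

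For KDM5C no change of the difference between the states was called. It had 0.572, 0.592 and 0.588 CPM in TC-71 parental, against 266, 264 and 271 CPM in A4573 parental, and its interaction was -0.100 (adjusted p = 0.076, limma). For CES1 the difference was wider in the resistant lines, where TC-71 parental had 11.7, 12.9 and 13.4 CPM, against 163, 137 and 114 CPM in A4573 parental (interaction -4.29, SE 0.14, adjusted p = 4.9e-13). By a rule of 2-fold or more in the resistant lines, under 1.5-fold in the parents and a called interaction, 863 genes had opened a gap, 378 higher and 485 lower in TC-71-R. By the opposite rule 680 of the 4113 parental differences had closed.

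**Figure D2:**
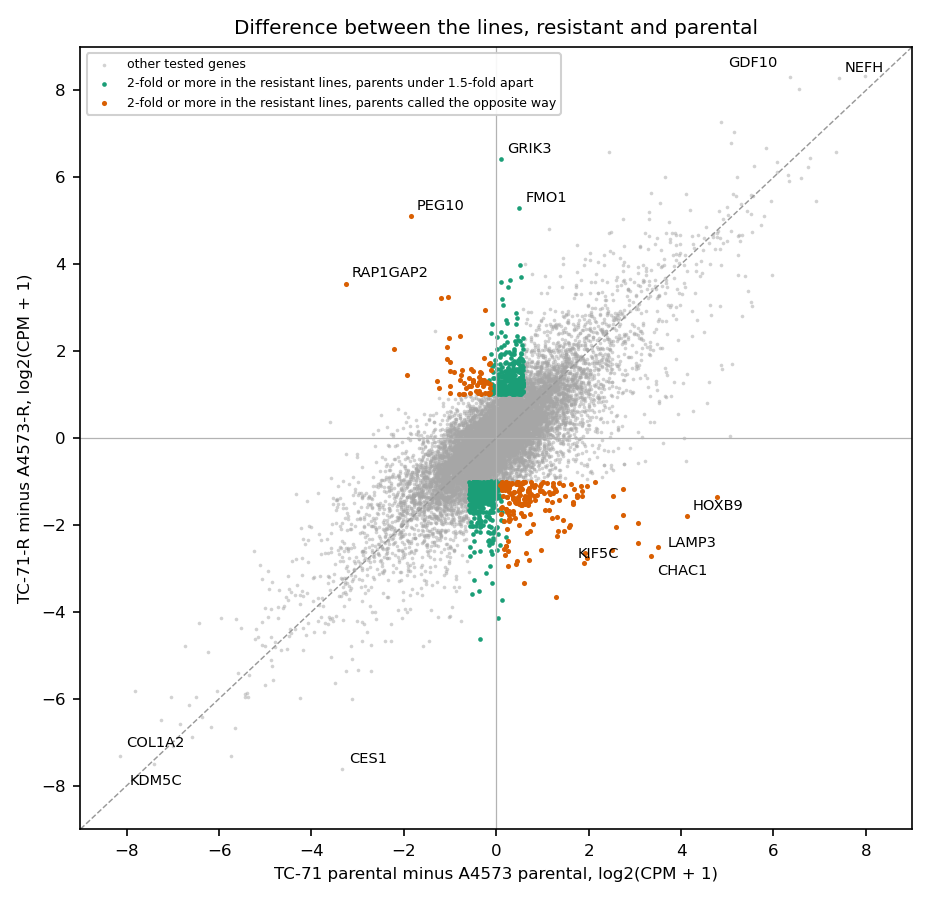
Difference between the resistant lines (vertical) against that between the parental lines (horizontal), each as TC-71 minus A4573 on the log2(CPM + 1) scale, 1 point per tested gene. Green points are 2-fold or more apart in the resistant lines with parents under 1.5-fold apart, and orange points have parents called the opposite way. Most points lie along the dashed line of equal difference, while GRIK3 and FMO1 lie near 0 on the horizontal axis and above 5 on the vertical one, and PEG10, RAP1GAP2, CHAC1, LAMP3 and HOXB9 in the quadrants of opposite sign.

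Of the 6 genes with the highest interaction, 4 had crossed over, since the line with more of the transcript differed between the resistant and the parental state. PEG10 (chromosome 7, 94656325 to 94669695), an imprinted gene derived from a retrotransposon, had 153, 141 and 159 CPM in TC-71-R, against 3.60, 3.09 and 3.62 CPM in A4573-R. In the parents it had 53.1, 53.0 and 51.5 CPM in TC-71 parental, against 187, 191 and 198 CPM in A4573 parental, so the order was opposite (interaction 6.95, SE 0.073, adjusted p = 5.5e-18). RAP1GAP2, which switches off the small GTPase RAP1, averaged 20.9 ± 0.804 CPM in TC-71-R and 0.865 ± 0.0726 CPM in A4573-R, with 0.327 ± 0.0579 CPM in the TC-71 parental libraries and 11.7 ± 0.113 CPM in the A4573 parental ones (SD, n = 3 each; interaction 6.82, SE 0.073, adjusted p = 5.5e-18). ATOH8, a helix-loop-helix transcription factor, and EPAS1, which encodes the hypoxia factor HIF-2 alpha, crossed in the same way. Their interactions were 4.41 and 4.30 (adjusted p = 6.4e-16 and 3.4e-15, limma). GRIK3 and FMO1, a flavin monooxygenase that oxidises drugs, were low in both parents and high in TC-71-R. GRIK3 had 86.3, 94.0 and 86.6 CPM in TC-71-R and 0.0145, 0.112 and 0.0258 CPM in A4573-R, with 1.14 ± 0.168 CPM in TC-71 parental, against 0.991 ± 0.0843 CPM in A4573 parental (SD, n = 3 each). FMO1 had 64.8, 61.5 and 65.2 CPM in TC-71-R, 0.694, 0.675 and 0.594 CPM in A4573-R, and under 1 CPM in every parental library.

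The 6 genes with the lowest interaction all lay higher in A4573-R than in TC-71-R, although TC-71 parental was above A4573 parental. KIF5C, a neuronal kinesin heavy chain, had 3.05, 3.02 and 2.85 CPM in TC-71-R, against 21.1, 19.2 and 20.3 CPM in A4573-R, and 22.0 ± 0.388 CPM in TC-71 parental against 1.76 ± 0.0391 CPM in A4573 parental (SD, n = 3 each; interaction -5.48, SE 0.067, adjusted p = 2.4e-17). LAMP3, of lysosome membranes, averaged 0.0767 ± 0.0398 CPM in TC-71-R and 5.13 ± 1.02 CPM in A4573-R (SD, n = 3 each; interaction -5.99, SE 0.13, adjusted p = 7.2e-15). HOXB9, a posterior patterning factor, averaged 3.79 ± 0.253 CPM in TC-71-R and 15.99 ± 4.09 CPM in A4573-R (SD, n = 3 each; interaction -5.92, SE 0.16, adjusted p = 1.1e-13). CHAC1, SESN2 and ATF3, which cells induce under amino acid or endoplasmic reticulum stress, form the rest, and their values are given with the stress genes.

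**Figure D3:**
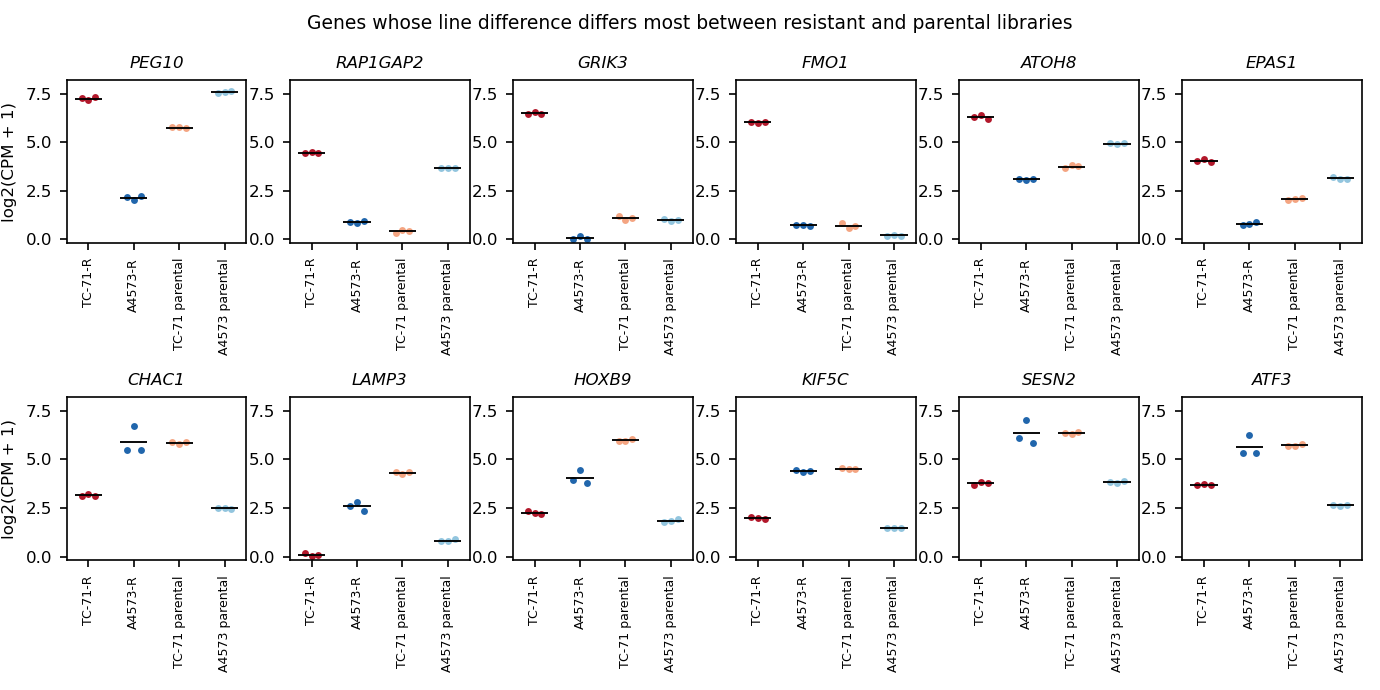
Level of the 6 genes with the highest (upper row) and the 6 with the lowest (lower row) interaction, on the log2(CPM + 1) scale. Points are libraries and black lines are means of 3, in TC-71-R, A4573-R, TC-71 parental and A4573 parental. In the lower row TC-71-R lies under A4573-R while TC-71 parental lies over A4573 parental, and A4573-R replicate 2 stands above its fellows for CHAC1, SESN2 and ATF3.

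Genes known as targets of EWS-FLI1 were split between the lines. Of 37 activated targets, 20 were higher and 14 lower in TC-71-R and 3 were not called, with a median difference of 0.27, where 42.6% of all genes were higher, 44.6% lower and the median -0.02. These background shares apply to the counts of every list below, and no list was tested against them. DKK2, a WNT pathway regulator, had 83.4, 80.01 and 85.1 CPM in TC-71-R, against 5.57, 5.73 and 5.82 CPM in A4573-R (log2 difference 3.64, SE 0.048, adjusted p = 4.6e-13). KDSR, an enzyme of ceramide synthesis, was also higher (3.003). The receptor tyrosine kinase KIT averaged 6.41 ± 0.210 CPM in TC-71-R and 57.8 ± 1.07 CPM in A4573-R (SD, n = 3 each; log2 difference -2.99, SE 0.048, adjusted p = 1.9e-12). CCK, described above, was the lowest of the list. NR0B1, a nuclear receptor that Ewing sarcoma growth depends on, was higher (1.70) and NKX2-2, a neural homeobox factor, lower (-0.81). Of 19 tested members among 22 repressed targets, 8 were higher and 11 lower (median -0.36). LOX, lysyl oxidase, stands in both lists and was lower (-1.35). The lowest of the repressed targets were COL1A2, COL3A1 (-2.69) and TNC (-2.58), which encode matrix proteins, and IGFBP3, which binds insulin-like growth factors (-2.03), while FOXO1, a transcription factor of the insulin pathway, was higher (1.76).

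Among 15 tested surface antigens of Ewing sarcoma, 6 were higher and 9 lower in TC-71-R, 14 of them by 2-fold or more, where 30.8% of all tested genes were 2-fold or more apart. SLCO5A1, an organic anion transporter family member, had 323, 318 and 338 CPM in TC-71-R, against 40.9, 36.7 and 37.5 CPM in A4573-R (log2 difference 3.06, SE 0.051, adjusted p = 2.4e-12). The orphan receptor ADGRG2 (4.05) and STEAP1, a metalloreductase (2.47), were higher too. The adhesion molecule L1CAM averaged 3.70 ± 0.277 CPM in TC-71-R and 83.4 ± 3.58 CPM in A4573-R (SD, n = 3 each; log2 difference -4.17, SE 0.060, adjusted p = 7.9e-13), and NCAM1 (-2.96) and B4GALNT1, an enzyme of ganglioside synthesis (-2.63), were lower as well. Of 15 ETS factors, 8 were higher, 2 lower and 5 not called. ETV5, which growth factor signalling induces, had 135, 126 and 139 CPM in TC-71-R, against 1.504, 1.84 and 1.72 CPM in A4573-R (log2 difference 5.64, SE 0.063, adjusted p = 1.9e-13). FEV, an ETS gene of serotonin neurons and a rare fusion partner, was at 14.7 ± 0.672 CPM in TC-71-R and 0.106 ± 0.0251 CPM in A4573-R (SD, n = 3 each).

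**Figure D4:**
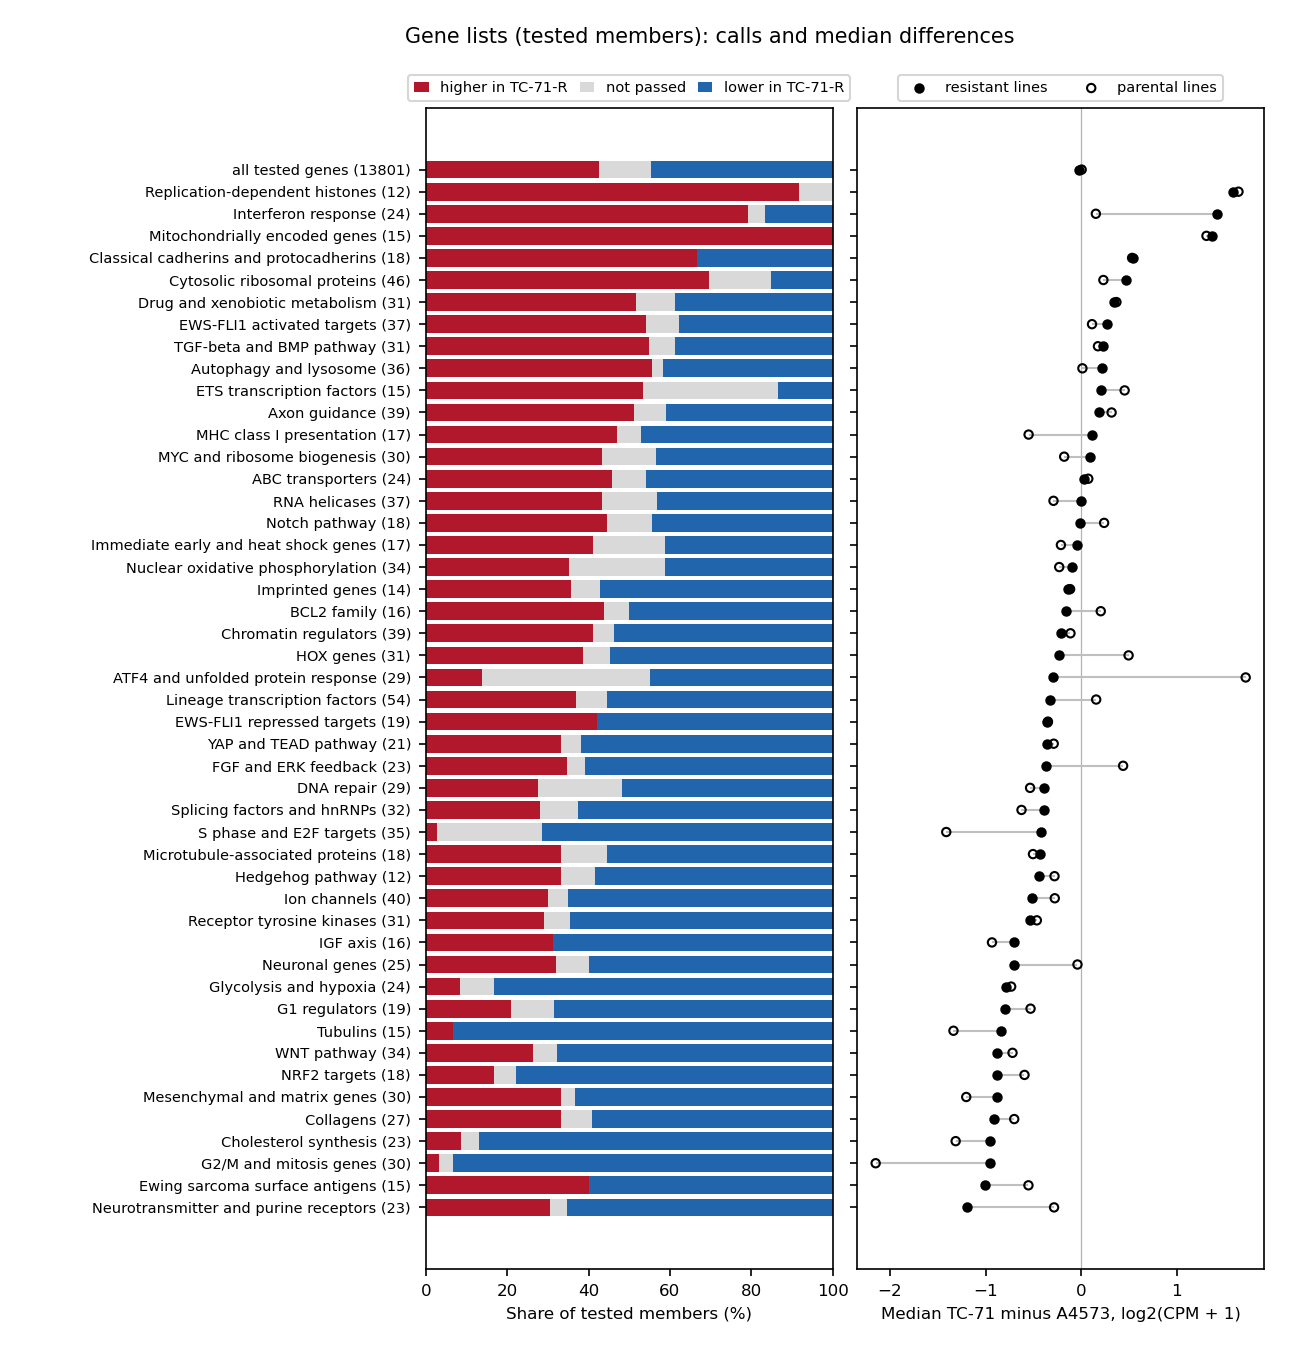
Gene lists with at least 12 tested members, ordered by the median difference between the resistant lines. The left panel gives the share of members higher in TC-71-R (red), not called (grey) and lower (blue), and the right panel the median difference between resistant lines (filled) and parental lines (open) on the log2(CPM + 1) scale. Mitochondrially encoded genes were higher in all 15 cases. Among the lists shown, the stress list has the widest gap between its medians, -0.29 in the resistant and 1.72 in the parental lines.

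Of 54 tested lineage transcription factors, 20 were higher and 30 lower in TC-71-R (median -0.33), beside 42.6% higher and 44.6% lower among all genes. POU3F1, a factor of Schwann cells and neurons, had 172, 171 and 169 CPM in TC-71-R, against 3.80, 3.07 and 4.10 CPM in A4573-R (log2 difference 5.21, SE 0.075, adjusted p = 7.9e-13). FOXC2, a mesenchymal forkhead factor, was higher (3.53), and SOX9, a factor of cartilage and neural crest, was lower, at 0.0244 ± 0.0264 CPM in TC-71-R and 20.4 ± 0.752 CPM in A4573-R (SD, n = 3 each; log2 difference -4.38, SE 0.059, adjusted p = 5.1e-13). Of 31 tested HOX genes, 12 were higher and 17 lower. The higher ones came from the HOXA and HOXD clusters, with HOXA11 at 2.28 the highest, apart from HOXC8 at 0.19. HOXB2 to HOXB9 were all lower, from -0.55 for HOXB4 to -2.48 for HOXB8, and HOXB13 was lower at -1.07. Of 25 tested neuronal genes, 8 were higher, led by NEFH and STMN4, a stathmin that destabilises microtubules (5.98), and 15 lower. The neurofilament-like protein INA had 0.796 ± 0.112 CPM in TC-71-R and 39.1 ± 3.47 CPM in A4573-R (SD, n = 3 each; log2 difference -4.48, SE 0.077, adjusted p = 2.9e-12).

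Collagen and matrix genes were lower in TC-71-R more often than higher, and cadherins higher more often than lower. Of 27 tested collagens, 9 were higher and 16 lower (median -0.92), and of 30 mesenchymal and matrix genes 10 were higher and 19 lower (median -0.88). The fibrillin FBN2 was listed at 0 in all TC-71-R libraries and averaged 18.2 ± 1.88 CPM in A4573-R (SD, n = 3). THY1, a surface glycoprotein of fibroblasts and neurons, was lower (-4.92), as was LGALS1, which encodes galectin-1 (-3.96). TIMP1, an inhibitor of matrix metalloproteinases, was higher, with 477, 466 and 494 CPM in TC-71-R, against 28.7, 27.8 and 31.0 CPM in A4573-R (log2 difference 3.99, SE 0.050, adjusted p = 3.2e-13). Of 18 cadherins and protocadherins, 12 were higher and 6 lower (median 0.54), led by PCDH8 (4.62) and PCDH10 (4.53). CDH4, R-cadherin, was lower (-3.82). Of the 10 tested epithelial genes 3 were higher and 7 lower, with a median of -1.38, against 0.92 in the parents. DSG2, a desmosomal cadherin, averaged 0.0211 ± 0.00826 CPM in TC-71-R and 27.5 ± 0.755 CPM in A4573-R, and KRT18, a keratin, 4.11 ± 0.449 CPM in TC-71-R and 0 CPM in A4573-R (SD, n = 3 each). The 9 fibroblast and muscle markers, THY1 among them, summed to 77.1 to 87.0 CPM in TC-71-R and 121 to 128 CPM in A4573-R. THY1 made up most of that gap, at 0.281 to 0.454 CPM in TC-71-R and 36.7 to 44.8 CPM in A4573-R. LUM and PDGFRA also had fewer CPM in TC-71-R, and DCN, PDGFRB and ACTA2 had more. The muscle regulators MYOD1 and MYOG were at 0 to 6 reads in every library. The part of these markers in the matrix differences was not tested.

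Genes of mitosis were lower in TC-71-R in nearly all cases, and most S phase genes were lower too. Of 30 genes of the G2/M phases, 28 were lower, 1 was higher and 1 was not called, with a median of -0.96. CCNB2, a mitotic cyclin, had 26.0, 26.9 and 26.6 CPM in TC-71-R, against 111, 116 and 112 CPM in A4573-R (log2 difference -2.05, SE 0.042, adjusted p = 9.4e-12). The kinetochore protein gene CENPF had 124, 132 and 126 CPM in TC-71-R, against 440.1, 424 and 366 CPM in A4573-R (log2 difference -1.68, SE 0.067, adjusted p = 1.6e-09). The exceptions were the phosphatase gene CDC25C, higher at 0.25, and the checkpoint gene BUB3, not called (-0.023, adjusted p = 0.65, limma). The parental median was -2.15, and the interaction was positive and called in all 30 genes, beside 38.5% of all tested genes. Of 35 genes of S phase, 25 were lower, 1 higher and 9 not called (median -0.42, -1.41 in the parents), led by RRM2, a subunit of ribonucleotide reductase (-2.18), and the replication factor GINS4 (-2.09). Growth rates were not measured in these files.

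Of 19 tested regulators of G1, 13 were lower and 4 higher in TC-71-R. CDKN2A (chromosome 9, 21967753 to 21995301), which encodes the p16 inhibitor, had 0.207, 0.315 and 0.175 CPM in TC-71-R, against 65.0, 73.5 and 68.5 CPM in A4573-R (log2 difference -5.83, SE 0.068, adjusted p = 2.3e-13). The parents differed by -6.05 for CDKN2A. Cyclin D2 averaged 0.358 ± 0.144 CPM in TC-71-R and 129 ± 13.6 CPM in A4573-R (SD, n = 3 each), and cyclin D3 (CCND3) was lower (-2.39). PARP1, which marks DNA breaks, had 249.5, 231 and 252 CPM in TC-71-R, against 976, 954 and 1028 CPM in A4573-R (log2 difference -2.01, SE 0.053, adjusted p = 6.3e-11). Of 29 DNA repair genes, 15 were lower, 8 higher and 6 not called. Of 16 tested genes of the BCL2 family, 7 were higher and 8 lower, and the death-promoting members BOK (3.84) and HRK (2.74) were highest.

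Tubulins, the subunits of microtubules, were lower in TC-71-R in 14 of 15 tested members, with TUBG2, a gamma tubulin, higher at 0.49 (median -0.84, -1.34 in the parents). TUBA1A had 158, 148 and 172 CPM in TC-71-R, against 895, 815 and 913 CPM in A4573-R (log2 difference -2.45, SE 0.065, adjusted p = 6.2e-11). TUBB3, the neuronal beta tubulin, averaged 1.95 ± 0.260 CPM in TC-71-R and 43.8 ± 2.47 CPM in A4573-R (SD, n = 3 each; log2 difference -3.93, SE 0.074, adjusted p = 5.5e-12), with 35.8% of its exon bases shared with another gene. TUBA4A was lower by more (-4.46). The tubulin genes have near-identical copies and pseudogenes between which reads can be split, so single members are uncertain. The call of TUBB (-0.84, adjusted p = 0.027, limma) was lost in DESeq2 (adjusted p = 0.19) and in edgeR (adjusted p = 0.073), and its adjusted p ran from 2.4e-06 to 0.19 over all alternatives. Of 18 microtubule-associated genes, 6 were higher and 10 lower, among them MAP1B of growing axons, at 9.36 ± 0.539 CPM in TC-71-R and 177 ± 19.04 CPM in A4573-R (SD, n = 3 each; log2 difference -4.10, SE 0.074, adjusted p = 4.1e-12).

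Genes of the amino acid and unfolded protein stress responses, which the factor ATF4 drives in part, were lower in TC-71-R or not called in most cases, while the parental difference ran the opposite way. Of 29 tested, 13 were lower, 4 higher and 12 not called in TC-71-R, with a median of -0.29 against 1.72 in the parents. The interaction was called in 24 of the 29, negative in 22, beside 78% called and 39.5% negative among all genes. CHAC1, which degrades glutathione, had 7.83, 8.38 and 7.84 CPM in TC-71-R, against 44.3, 103 and 43.5 CPM in A4573-R (log2 difference -2.72, SE 0.26, adjusted p = 2.1e-06), and 57.6, 54.3 and 57.6 CPM in TC-71 parental, against 4.73, 4.61 and 4.55 CPM in A4573 parental. The parental order was thus opposite. SESN2, a leucine sensor, had 11.9, 13.5 and 12.7 CPM in TC-71-R, against 67.5, 132 and 57.3 CPM in A4573-R (log2 difference -2.57, SE 0.24, adjusted p = 1.5e-06). The stress factor ATF3 had 11.7, 12.1 and 12.1 CPM in TC-71-R, against 39.1, 75.4 and 39.5 CPM in A4573-R (log2 difference -1.95, SE 0.20, adjusted p = 3.9e-06). A4573-R replicate 2 was the highest of its line in each of the 3 genes, and no A4573-R library overlapped TC-71-R. Without that library the differences were -2.32 for CHAC1, -2.21 for SESN2 and -1.64 for ATF3. TRIB3, an inhibitor of the kinase AKT, was not called in the resistant lines, at 64.4, 68.6 and 55.3 CPM in TC-71-R and 57.3, 105 and 37.5 CPM in A4573-R (adjusted p = 0.9, limma), and differed by 5.05 in the parents (interaction -5.02, SE 0.32, adjusted p = 1.2e-09). XBP1, a factor of the unfolded protein response, was higher in TC-71-R (1.37). Without A4573-R replicate 2, a choice made after seeing the data, 12 members were lower, 8 higher and 9 not called, and the median was -0.07.

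Lipid and sugar metabolism genes were mostly lower in TC-71-R. Of 23 genes of cholesterol synthesis, 20 were lower and 2 higher (median -0.96), led by the enzyme genes SC5D (-2.54), MVD (-2.27) and DHCR7, which makes cholesterol in the last step of its pathway (-2.25). Of 24 genes of glycolysis and hypoxia, 20 were lower and 2 higher (median -0.78). GAPDH, the glycolytic dehydrogenase, averaged 996 ± 48.2 CPM in TC-71-R and 3222 ± 145 CPM in A4573-R (SD, n = 3 each; log2 difference -1.69, SE 0.063, adjusted p = 8.9e-10), and the aldolase of brain, ALDOC, was lowest (-3.26). Of 18 targets of the oxidant sensor NRF2, 14 were lower and 3 higher, led by the cystine transporter SLC7A11 (-2.28). All 15 tested genes of the mitochondrial genome were higher in TC-71-R, by 0.77 to 2.85. The highest, MT-ND1 of respiratory complex I, had 3493, 4336 and 2221 CPM in TC-71-R, against 436, 393 and 517 CPM in A4573-R (log2 difference 2.85, SE 0.20, adjusted p = 1.6e-07). Nuclear genes of oxidative phosphorylation were split, with 12 higher, 14 lower and 8 not called of 34, and a median of -0.10 that turned to 0.11 under quantile normalization.

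Interferon response genes were higher in TC-71-R in 19 of 24 tested, lower in 4 and not called in 1, with a median of 1.42, beside 0.15 in the parents. The interaction was called in 23 of the 24, positive in 20, beside 78% called and 38.5% positive among all genes. IFITM1, which blocks entry of viruses, had 46.3, 46.1 and 47.3 CPM in TC-71-R, against 3.89, 3.86 and 3.32 CPM in A4573-R (log2 difference 3.34, SE 0.061, adjusted p = 4.1e-12), although 32.5% of its exon bases overlap IFITM2. IFIT3, of the antiviral IFIT family, averaged 8.97 ± 1.93 CPM in TC-71-R and 0.626 ± 0.0467 CPM in A4573-R (SD, n = 3 each; log2 difference 2.60, SE 0.11, adjusted p = 3.4e-09). The sensors IFIH1 (1.56) and TMEM173, which encodes STING (1.64), were higher, and MB21D1, which encodes the DNA sensor cGAS, was lower (-0.82). IFI44L was the lowest (-3.30). The other 10 of the 34 listed genes, among them MX1 and OAS1, did not reach the test. Of 17 genes of class I antigen presentation, 8 were higher and 8 lower. HLA-C was read once in the 3 TC-71-R libraries and averaged 13.8 ± 1.56 CPM in A4573-R (SD, n = 3). HLA genes vary between people and reads can be lost or moved between them, so this level is uncertain. The transporter TAP1 (1.08) and the peptide editor relative TAPBPL (1.72) were higher.

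Of 36 cancer-testis antigens, 10 were tested, 8 of them higher and 2 lower in TC-71-R. PAGE1 had 101, 97.4 and 99.5 CPM in TC-71-R, against 0.0868, 0.0125 and 0.0258 CPM in A4573-R (log2 difference 6.59, SE 0.055, adjusted p = 4.7e-14), and 4.52, 4.59 and 4.17 CPM in TC-71 parental. PRAME, which represses retinoic acid signalling, had 65.4, 67.5 and 63.8 CPM in TC-71-R, against 0.0579, 0.0250 and 0.0388 CPM in A4573-R (log2 difference 5.999, SE 0.055, adjusted p = 7.7e-14), and 11.3, 12.1 and 12.1 CPM in TC-71 parental. The genes of this list have close copies, mostly on chromosome X, so their single values are uncertain. Of 12 tested replication-dependent histone genes 11 were higher and 1 not called (median 1.59), led by HIST1H2AC (4.51). Most such transcripts lack polyadenine tails and have near-identical copies, and whether the kit selected polyadenylated RNA is not stated. The listed member H1F0 is made independently of replication, so the list is not purely of this class. Of 39 chromatin regulators, 16 were higher and 21 lower, with the methyltransferase EZH2 lower (-1.72) and SMARCC1, a core subunit of the BAF complex, higher (1.45). Of 46 cytosolic ribosomal protein genes, 32 were higher, 7 lower and 7 not called (median 0.47).

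Signalling genes were mixed by pathway. Of 34 tested WNT pathway genes, 23 were lower and 9 higher (median -0.88), and the secreted inhibitors SFRP2, SFRP1 (-5.37) and FRZB (-4.15) were all lower while DKK2 was higher. GLI1, the effector of Hedgehog signalling and an EWS-FLI1 target, had 9.82, 9.73 and 8.61 CPM in TC-71-R, against 71.7, 74.1 and 72.7 CPM in A4573-R (log2 difference -2.83, SE 0.056, adjusted p = 7.1e-12), while it averaged 18.9 ± 0.401 CPM in the TC-71 parental libraries and 13.6 ± 0.257 CPM in the A4573 parental ones (SD, n = 3 each; interaction -3.28, SE 0.064, adjusted p = 3.8e-15). GAS1, a Hedgehog coreceptor, was higher (2.62). Of 31 TGF-beta and BMP genes, 17 were higher and 12 lower, with the BMP-induced ID1 (2.59) and ID4 (2.24) higher and the ligand BMP7 lower (-3.90). Of 23 FGF and ERK feedback genes, 8 were higher and 14 lower. FGF19, a growth factor, averaged 0.131 ± 0.0250 CPM in TC-71-R and 18.9 ± 0.216 CPM in A4573-R, against 0.309 ± 0.0630 CPM in the TC-71 parental libraries and 0.282 ± 0.124 CPM in the A4573 parental ones (SD, n = 3 each; interaction -4.17, SE 0.092, adjusted p = 1.2e-14). Of 16 genes of the IGF axis, 5 were higher and 11 lower, among them the adaptor IRS1, higher (1.43), and its relative IRS2, lower (-1.29). Of 31 receptor tyrosine kinases, 9 were higher and 20 lower, and EGFR had 2 reads over the TC-71-R libraries and averaged 6.80 ± 0.375 CPM in A4573-R (SD, n = 3). Of 18 Notch genes, 8 were higher and 8 lower, with the ligand JAG2 (3.72) and the target HES1 (2.15) higher, and of 21 YAP and TEAD pathway genes 7 were higher and 13 lower.

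Of 23 neurotransmitter and purine receptors, 7 were higher and 15 lower in TC-71-R (median -1.19, -0.28 in the parents), where 42.6% of all genes were higher and 44.6% lower. GRIK5, a kainate receptor subunit, was lower (-2.61) where GRIK3 was higher. Of 40 ion channel genes, 26 were lower and 12 higher, led by the calcium channel genes CACNG4 (-4.67) and CACNA1C (-4.54). Axon guidance genes were split, 20 higher and 16 lower of 39, with the SLIT receptor ROBO2 at 269, 273 and 260.1 CPM in TC-71-R, against 14.7, 13.3 and 12.4 CPM in A4573-R (log2 difference 4.22, SE 0.059, adjusted p = 6.5e-13). The attractant NTN1 was lower (-3.24).

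Genes of drug transport and metabolism were called in both directions. Of 24 tested ABC transporter genes, with the vault protein gene MVP counted among them, 11 were higher and 11 lower in TC-71-R and 2 were not called, beside 42.6% higher and 44.6% lower among all genes. At 2-fold or more, 7 were higher and 2 lower, where the shares of all genes were 14.6% and 16.3%. The median of 0.03 was -0.03 without TC-71-R replicate 2. The highest were ABCA5, at 136, 139 and 154 CPM in TC-71-R, against 13.96, 13.3 and 12.2 CPM in A4573-R (log2 difference 3.35, SE 0.062, adjusted p = 4.5e-12), and ABCA3, both lipid transporters (3.05). Of the transporters best known from drug resistance, ABCB1 averaged 1.31 ± 0.0821 CPM in TC-71-R and was listed at 0 in A4573-R, ABCC1 was lower in TC-71-R (-0.85), and ABCG2 did not reach the level for testing. ABCB1 averaged 5.86 ± 0.260 CPM in the TC-71 parental libraries and 0.202 ± 0.0354 CPM in the A4573 parental ones (SD, n = 3 each). Of 31 genes of drug metabolism, 16 were higher and 12 lower. FMO1, given above, was the highest, followed by CYP26B1, which clears retinoic acid (5.23), and AKR1C3, a ketosteroid reductase, at 13.9, 13.9 and 13.3 CPM in TC-71-R, against 0.145, 0.125 and 0.0905 CPM in A4573-R (log2 difference 3.71, SE 0.057, adjusted p = 1.3e-12). The lowest was ALDH2, an aldehyde dehydrogenase (-1.38), and CES1, given above, is not in this list.

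Of 32 splicing factors, 9 were higher and 20 lower in TC-71-R (median -0.39), and 3 were 2-fold or more apart, beside 30.8% of all genes. SRSF6 was higher (1.03) and RBFOX2, which sets neuronal and mesenchymal splicing, lower (-1.02). Of 37 RNA helicases, 16 were higher and 16 lower, 4 and 1 of them by 2-fold or more, with a median of -0.0073 that turned to 0.061 under quantile normalization and 0.0078 under median-of-ratios scaling. DDX54, a nucleolar helicase, was lower (-1.66). MYC, driver of ribosome and growth genes, had 573, 579 and 567 CPM in TC-71-R, against 245, 248 and 247 CPM in A4573-R (log2 difference 1.21, SE 0.041, adjusted p = 4.5e-10), and the parents differed by as much (1.22; interaction adjusted p = 0.92, limma). Its relatives MYCN (-1.42) and MYCL (-2.13) were lower, and both averaged 4.94 to 5.03 CPM in A4573-R. Among the most abundant nuclear genes, the translation factors EEF1A1 (adjusted p = 0.077) and EEF2 (adjusted p = 0.15, limma) were not called, while the cytoplasmic actin genes differed in opposite directions. ACTG1 averaged 4635 ± 239 CPM in TC-71-R and 2549 ± 86.3 CPM in A4573-R, and ACTB 1476 ± 51.2 CPM in TC-71-R and 2655 ± 144 CPM in A4573-R (SD, n = 3 each). Of 30 genes of MYC and ribosome biogenesis, 13 were higher and 13 lower, and of 17 immediate early and heat shock genes 7 were higher and 7 lower. Of 36 autophagy and lysosome genes, 20 were higher and 15 lower, with the lysosomal enzyme genes HEXA (3.83) and CTSZ (3.04) highest. Of 14 tested imprinted genes, 5 were higher and 8 lower, with PEG10 highest and PEG3, a zinc finger gene, lowest (-4.46).

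A few genes varied widely among the libraries of 1 line. ID3, a BMP-induced inhibitor of differentiation, had 85.0, 92.3 and 48.4 CPM in TC-71-R and 0.636, 27.0 and 51.1 CPM in A4573-R, so the groups overlapped. Its difference of 2.46 (adjusted p = 0.038, limma) was 0.94 without A4573-R replicate 1 and was not called by edgeR (adjusted p = 0.068) or DESeq2 (adjusted p = 0.26), with an adjusted p of 0.0021 to 0.26 over all alternatives. MIF, a cytokine that an antisense gene overlaps over 61.9% of its exon bases, had 0.592, 0.643 and 17.4 CPM in TC-71-R and 0.926, 10.5 and 14.4 CPM in A4573-R and was not called (adjusted p = 0.36, limma). The ribosomal protein genes RPL7A and RPS9, which have many pseudogenes, were uneven in TC-71-R. RPL7A had 1539.8, 373 and 1170.2 CPM there and 1259, 1167 and 1356 CPM in A4573-R, and RPS9 148, 438 and 215 CPM in TC-71-R and 105, 228 and 182 CPM in A4573-R, and neither was called. PCK2, an amino acid stress gene, had 27.8, 25.3 and 28.3 CPM in TC-71-R, against 15.01, 27.4 and 8.24 CPM in A4573-R. CTH, which makes cysteine, had 7.24, 7.42 and 7.32 CPM in TC-71-R, against 12.8, 24.5 and 7.86 CPM in A4573-R, and A4573-R replicate 2 was the highest of its line for both. PCK2 was called higher (adjusted p = 0.028, limma) but lost the call when any single library other than A4573-R replicate 2 was left out (adjusted p 0.051 to 0.088).

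Differences were not even along the genome. On chromosome 12, 212 of 742 tested genes were lower in TC-71-R by 2-fold or more and 50 higher, with a median of -0.52, against -0.12 in the parents. Chromosome X (median -0.45, 489 genes) and chromosome 15 (-0.38, 423 genes) also lay below 0, and chromosomes 14 (0.49, 449 genes), 18 (0.35, 205 genes) and 16 (0.31, 616 genes) above it. Copy number was not measured here. Runs of 6 or more neighbouring tested genes all 2-fold or more apart in 1 direction numbered 26. The longest were 2 runs of zinc finger genes on chromosome 19 that were lower in TC-71-R, one of 19 genes from ZNF708 to RPSAP58 (median -1.97, -2.07 in the parents) and one of 12 genes from ZNF506 to ZNF85 (median -3.003, -3.14 in the parents). Another zinc finger run of 11 genes, ZNF28 to AC092070.2, had a median of -2.73 in the resistant and -1.26 in the parental lines. The HOXB5 to HOXB9 run on chromosome 17 was lower with a median of -1.67, where the parental median was 0.62. Runs higher in TC-71-R included the histone genes of chromosome 6 from HIST1H2BC to HIST1H4H with BTN3A2 (median 2.17) and 6 genes of chromosome 21 from SLC19A1 to the collagen VI genes COL6A1 and COL6A2 (median 1.68).

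**Figure D5:**
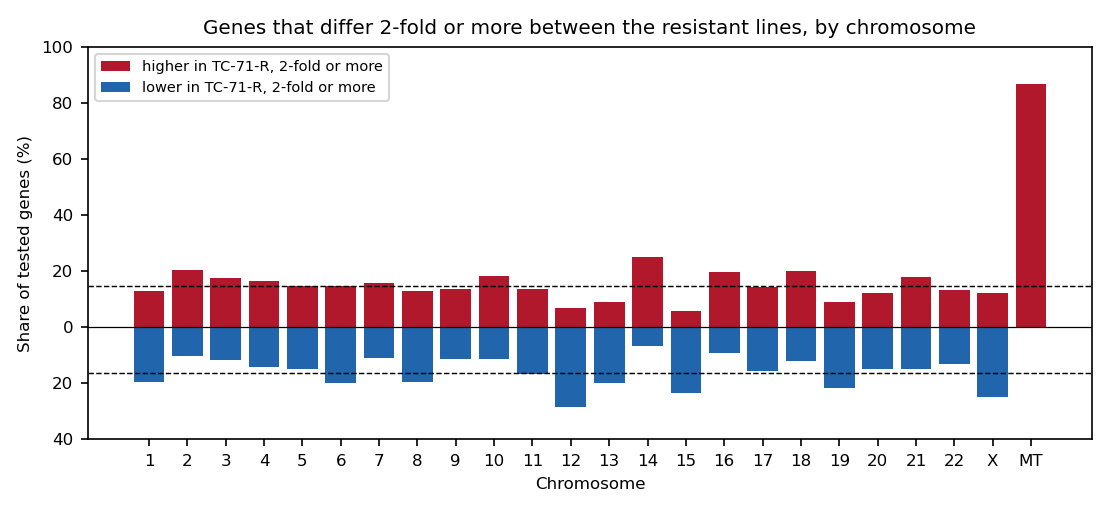
Share of the tested genes of each chromosome that were higher (red, upward) or lower (blue, downward) in TC-71-R by 2-fold or more. Dashed lines give the shares over all genes, 14.6% higher and 16.3% lower. Chromosome 12 has the largest share of lower genes, and chromosome 14 the largest share of higher genes among the nuclear chromosomes.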

How the data were processed

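The deposited values are a signal per gene and library that the authors scaled, called CPM here, and the submitters' processing notes name Trimmomatic, STAR 2.4, HTSeq, edgeR and the GRCh38 build, without settings, annotation or strand. Per the labels' protocols, TruSeq libraries were read as pairs of 100 bases. Every deposited value was a whole multiple of the library's smallest value (100% within a tolerance of 0.001), so whole reads were recovered. Columns add up to 0.940 M to 1.12 M, as the authors' scaling left them. The 5 unnamed entries per library were dropped, which held 30.6% to 42.0% of all reads. Entries sharing a symbol were summed.

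Genes reaching 1 CPM in 3 of the 6 resistant libraries were tested on log2(CPM + 1) with limma 3.58.1 in R 4.3.3 (empirical Bayes, Benjamini-Hochberg adjustment over all 13801 genes). The resistant comparison used the 6 resistant libraries. The parental difference and the interaction came from a shared fit of all 12 libraries, so the spread behind the parental calls includes the resistant libraries. The design had assumed CPM that add up to the same total, and the test was kept because the scaled values are comparable. The code was tested on simulated data with known changes. edgeR 4.0.16 and DESeq2 1.42.0, run on the recovered reads as alternatives, called 12066 and 11885 genes. The other alternatives were the pseudocount, the filter, the scaling, library weights, a block for the replicate number and leaving out each library.

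Positions and gene types come from GENCODE 29, in which 13587 of the 13801 symbols were found. The 51 gene lists hold 1581 entries, of which 1544 matched a symbol of the files, 33 matched through an earlier name and 4 had no match. The comparison and its lists were chosen with earlier results of these data known. Named genes were EWSR1, FLI1 and DHX9, the 12 highest and 12 lowest differences (at least 5 CPM in the higher line, no overlap of libraries, no clone names), the 6 highest and lowest interactions, up to 4 members of each list with the largest called difference, the 5 most abundant and 4 most variable genes of each line, and the leading genes read in 1 line. Other list members are named for their known roles or because they stand out in a count, after their values were seen. Genes that bear on sex were left out of the naming, but stay in the counts of tested and called genes and of genes read in 1 line. A few other genes that the rule names are not reported here. Intervals and floors cover counting error only.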

Additional observations from a re-analysis of the deposited data

Results flagged for a closer look

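The difference between the lines was not the same in the resistant and the parental state for 10770 genes by the interaction test (adjusted p under 0.05, limma). The 12 genes below have the largest interactions, each the resistant difference minus the parental one on the log2(CPM + 1) scale, over 3 libraries a group. On the positive side the interaction was 6.95 for PEG10, 6.82 for RAP1GAP2, 6.32 for GRIK3, 4.80 for FMO1, 4.41 for ATOH8 and 4.30 for EPAS1. On the negative side it was -6.07 for CHAC1, -5.99 for LAMP3, -5.92 for HOXB9, -5.48 for KIF5C, -5.07 for SESN2 and -5.02 for ATF3. Each of the 12 kept its direction and its call under every alternative that tested it. LAMP3 was not tested under the filter of a mean of at least 5 CPM. With 3 libraries a group, no test for a single outlying library was made.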

How the results depend on the processing

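Of 231 named genes, 221 kept their direction and their side of the threshold in the resistant difference under each of the 18 alternatives that tested them. Named genes under a mean of 5 CPM over the 6 libraries were not tested under the filter at that level. The number of genes called, 12041, lay between 11885 (DESeq2) and 12427 (library weights) under every alternative that kept the 13801 genes and all libraries, was 9166 of 10542 with a mean of at least 5 CPM and 17076 of 31804 with no filter, and lay between 11624 and 11925 with 1 library left out. Counts at 2-fold or more fell with a pseudocount of 5, by construction, to 2390 in the resistant difference (1122 higher, 1268 lower), 2436 in the parental difference (1168 higher, 1268 lower) and 1107 in the interaction (495 positive, 612 negative). With a mean of at least 5 CPM, which tests fewer genes, 2834 were called at 2-fold or more in the resistant difference (1470 lower), and 813 negative interactions. edgeR gave 1410 positive interactions at 2-fold or more, and with no filter 9379 genes were higher in TC-71 parental. Genes read in 1 line numbered 50 for TC-71-R and 66 for A4573-R at a minimum of 5 CPM, and 43 and 63 where the other line had 0 reads.

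Signs turned for EWSR1 under library weights (-0.0079), and its value was -0.0032 to 0.038 with 1 library left out. They turned for EEF1A1 under quantile normalization (-0.23), and for RPL7A under library weights (0.16), with a range of -0.93 to 0.093 with 1 library left out. None of these 3 genes was called in the comparison as reported, and the cause was not tested. The other 7 genes that lost or gained a call were ID3, TUBB, PCK2 and CTH, which lost it, and MIF, RPS9 and EEF2, which gained it, under at least 1 alternative. Median differences turned for nuclear oxidative phosphorylation under quantile normalization (0.11), RNA helicases under median-of-ratios scaling (0.0078) and quantile normalization (0.061), the Notch pathway under the same (0.0027 and 0.044), and chromosome 5 under quantile normalization (-5.1e-05). With 1 library left out, they turned for ABC transporters without TC-71-R replicate 2 (-0.031), the Notch pathway without A4573-R replicate 1 (0.011), and RNA helicases without TC-71-R replicate 1 (0.0056), A4573-R replicate 1 (0.075) or A4573-R replicate 3 (0.033). Another 17 list medians and 7 chromosome medians moved by more than the spread between libraries under 1 scaling each, with no change of sign.

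With the replicate block, 12097 genes were called, and RPS9 alone among the named genes gained a call and none changed direction. Whether the numbers pair the samples is not known. Deviations of same-numbered libraries of TC-71-R and A4573-R correlated at -0.027 to 0.183. Over all pairs of groups the range was -0.097 to 0.183 for same-numbered libraries and -0.17 to 0.16 for differently numbered ones. So few values cannot decide whether the libraries are paired. Genes near 1 CPM are limited by depth, where 1 CPM stands for 67.5 to 97.0 reads.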
